A study of Mus musculus with 2 samples.

Results

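Zinc transporters and metallothioneins set the zinc level of a cell, and 10 of these genes were described here in mouse liver with and without Fhl2, a LIM-only adaptor that partners transcription factors and signalling proteins. The genes were listed by name with the differences between these same pools already known, so they count as chosen by those log2 differences: 5 importers of the ZIP (Slc39) family, 3 exporters of the ZnT (Slc30) family and the metallothioneins Mt1 and Mt2. All 10 were found among the 19938 genes measured, each through 1 probe that the platform annotation gave to that symbol alone, and 0 probes with several symbols named any of them. The FHL2-/- group was a pool of liver RNA from 3 male mice, and the wild-type group a second such pool of 3. In both, the left lobe was taken at 10 to 11 weeks of age, the genetic background was Hybrid Black Swiss/129-SV/J, and no treatment is given. Each pool was read on 1 Affymetrix array, so there are no replicates and no test: every difference is between these pools, and pooling hides the spread between mice.

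ZIP proteins carry zinc into the cytosol from outside or from vesicles, and ZnT proteins carry it the other way, out of the cell or into organelles. Metallothioneins are small cysteine-rich proteins that bind zinc and copper. In liver their genes are induced through the zinc-sensing factor MTF1, and by glucocorticoids and interleukin-6 during stress and inflammation, when the liver takes up zinc from plasma.

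Levels are the deposited log2 values, and a difference is the knockout-labelled pool minus the wild-type pool on that scale. The FHL2-/- pool is called knockout-labelled because the Fhl2 probe stood at 5.33 in it and at 5.30 in the wild-type pool, both under the level filter. Which part of the gene was removed is not stated in the labels, and this probe therefore does not check the genotype. The filter kept 11924 genes with a mean level of 5.44 or more, which is the 40th percentile over all probes that carry 1 symbol. All 10 members passed it. The hepatocyte markers of the liver label were present, with a median level of 13.13 in the knockout-labelled and 13.18 in the wild-type pool over 7 measured genes. The nearest thing to a repeat is a gene with more than 1 probe, and the differences of such probes had an SD of 0.143 over 660 genes. It covers probe error and neither animals nor hybridisations.

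The members did not move as 1 group. Slc39a10 was lower in the knockout-labelled pool, Mt1 and Mt2 were higher, Slc39a14 was slightly higher, and the other 6 lay within 1 SD between probes of 0. At least 1.5-fold lower was 1 of the 10, against 0.335% of all genes past the filter. At least 1.5-fold higher were 0 of the 10, against 0.621%. Because the list was drawn up with these values known, nothing is read from these counts. The median difference of the members was -0.03, and the median of all genes was 0.04. A shift of both columns to the same median (the common median shift) raises every difference alike, by 0.041. It takes the median of the members to 0.01 and leaves their distance from that of all genes unchanged.

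**Figure D1:**
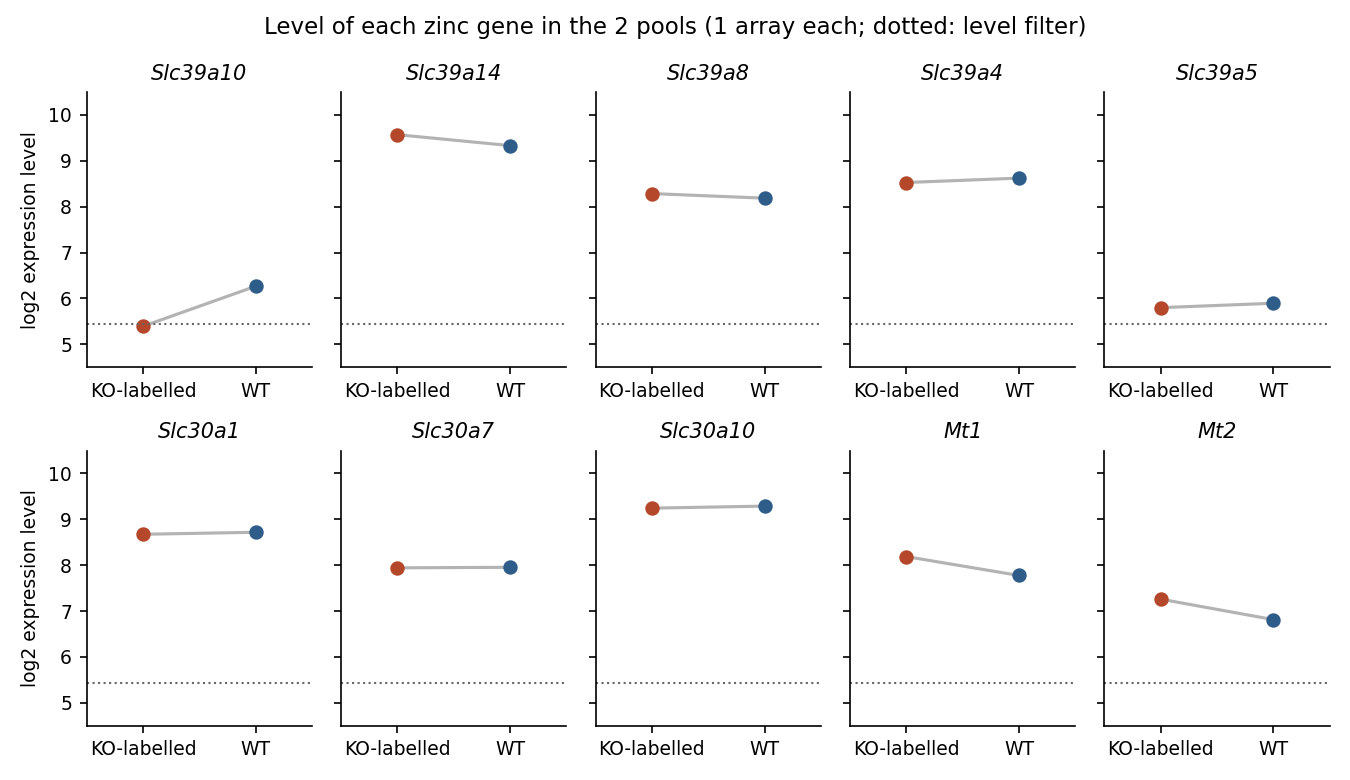
Deposited log2 level (vertical axis) of each of the 10 members in the knockout-labelled pool (left point) and the wild-type pool (right point), 1 array each. The dotted line is the level filter at 5.44. Slc39a10 drops to the filter line in the knockout-labelled pool, Mt1 and Mt2 stand higher in it, and the lines of the ZnT genes are almost flat.

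Slc39a10 encodes ZIP10, a plasma membrane zinc importer known in mouse for its part in early B cells, and its gene is known to be repressed by MTF1 when zinc is plentiful. Its level was 5.39 in the knockout-labelled pool, against 6.26 in the wild-type pool. The difference of -0.87 is 1.83-fold lower and 6.11 times the SD between probes. Among the genes past the filter it ranked 6 from the lowest, and 0.185% of them differed as far or further in either direction. Slc39a10 passed the filter on its mean level of 5.83, through the wild-type pool alone, and was listed with this difference known. Nothing is therefore read from its rank, from the 0.185% or from the multiple of the SD. The knockout-labelled value lies just under the filter level, where RMA compresses differences, so the size of the fold is uncertain. Over the 2 arrays, the genes whose levels were nearest to those of Slc39a10 were H2bc9, Gm10069 and Clec7a, at summed distances of 0.22, 0.26 and 0.28 on the log2 scale. Genes near it in both columns must have a like level and a like difference, so nothing is read from this nearness.

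Macrophage markers were also lower in the knockout-labelled pool, while the B cell markers measured were too dim in both pools to be compared. All 10 Kupffer cell and macrophage markers were below 0, as were 40.4% of all genes, with a median of -0.24. At least 1.5-fold lower were 0 of these markers, against 0.335% of all genes. Adgre1 was the lowest at -0.40, and Cd5l, the nearest to 0 at -0.0077, turned to 0.03 after the common median shift. Their summed linear signal was 3087 in the knockout-labelled and 3570 in the wild-type pool. Of the T and B cell markers, 4 were measured and 2 passed the filter, namely Cd8a at -0.40 and Cd3e at -0.14. Cd8a passed only through the wild-type pool, at 5.24 in the knockout-labelled and 5.65 in the wild-type pool, so nothing is read from its difference. The B cell markers Ms4a1 and Cd79a lay below the filter in both pools, at 4.04 and 4.37 in the knockout-labelled and 3.99 and 4.10 in the wild-type pool, differences of 0.05 and 0.26. The table holds no zero, so a marker's absence cannot be read from it. The part of these cells in the value of Slc39a10 was not tested, and in whole liver fewer cells of a type and less RNA per cell cannot be told apart.

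Slc39a10 also lies near the targeted gene. Both are on chromosome 1, and Slc39a10 is 19 measured genes from Fhl2, or 12 when only genes past the filter are counted. Of the 5 measured genes on each side of Slc39a10, 6 passed the filter, with differences between -0.16 and 0.39. Its neighbour at 4 steps, the iron exporter gene Slc40a1, was among the higher ones at 0.37. Of the 4 neighbours below the filter, the dynein gene Dnah7b was at -1.10, with 4.14 in the knockout-labelled and 5.23 in the wild-type pool. Chromosome beside a targeted allele often comes from the strain of the targeted cells, and in these pools loss of Fhl2 and that flanking stretch cannot be told apart.

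The bases before both listed starts of Slc39a10 are shown because this gene had the largest difference of the members. They come from RefSeq on GRCm38.p6, minus strand, chr1:46853619-46853868 for start 1 and chr1:46925777-46926026 for start 2. Capitals mark the core of the metal response element, the site that MTF1 is known to bind, searched as TGCACNC and TGCGCNC on both strands; neither sequence holds one.
Slc39a10 start 1: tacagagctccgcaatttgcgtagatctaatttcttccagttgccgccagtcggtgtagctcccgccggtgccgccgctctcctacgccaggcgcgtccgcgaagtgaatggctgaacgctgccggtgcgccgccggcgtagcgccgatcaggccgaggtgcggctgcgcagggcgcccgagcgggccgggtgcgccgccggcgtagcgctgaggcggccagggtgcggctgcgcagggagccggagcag
Slc39a10 start 2: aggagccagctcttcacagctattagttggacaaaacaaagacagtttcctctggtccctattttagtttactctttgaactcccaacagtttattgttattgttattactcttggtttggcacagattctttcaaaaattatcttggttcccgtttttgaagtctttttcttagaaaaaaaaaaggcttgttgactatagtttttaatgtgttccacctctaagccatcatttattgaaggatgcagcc

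The windows searched ran from 250 bases before to 50 bases after a start, and the last 50 are not printed. GC content was 72.3% in the window of start 1 and 38.7% in that of start 2. The metal response element core was in 25.7% of the 32851 mouse windows of this length. The STAT motif, searched as TTCNNNGAA, which reads the same on both strands, was in 8.30% of all windows and once in that of start 2, from 82 to 74 bases before it. A match is a run of letters and not evidence of binding, and no match says only that the letters are not in this window.

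The other importers differed less. Slc39a14 encodes ZIP14, which takes zinc, iron and manganese into hepatocytes and is known to be induced by interleukin-6. It was at 9.57 in the knockout-labelled and 9.33 in the wild-type pool, a difference of 0.24 or 1.18-fold, and 18.5% of genes differed as far or further. Slc39a8, whose product ZIP8 carries zinc and manganese, was at 8.29 in the knockout-labelled and 8.19 in the wild-type pool, a difference of 0.10. Slc39a4 encodes ZIP4, the importer of the gut whose loss in people causes the zinc deficiency acrodermatitis enteropathica. It was at 8.53 in the knockout-labelled and 8.62 in the wild-type pool, a difference of -0.10. Slc39a5, for a ZIP protein of the basolateral membrane of gut and pancreas cells, was at 5.80 in the knockout-labelled and 5.89 in the wild-type pool, also -0.10. Of these 4 importers, Slc39a14 alone lay further from 0 than 1 SD between probes.

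The exporters were nearly level. Slc30a1 encodes ZnT1, the zinc exporter of the plasma membrane and a known MTF1 target. It was at 8.67 in the knockout-labelled and 8.72 in the wild-type pool, a difference of -0.04. Slc30a10, a manganese exporter of liver, was at 9.24 in the knockout-labelled and 9.29 in the wild-type pool, also -0.04. Slc30a7, for the Golgi transporter ZnT7, which supplies zinc to enzymes of the secretory pathway, was at 7.94 in the knockout-labelled and 7.95 in the wild-type pool. Its difference of -0.01 turned to 0.03 after the common median shift, while that shift left Slc30a1 and Slc30a10 at -0.0028 each. All 3 differences were under 1 SD between probes, which sets no limit on the change in mice.

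Mt1 and Mt2 encode the metallothioneins of liver and were both higher. Mt1 was at 8.19 in the knockout-labelled pool and 7.78 in the wild-type pool, a difference of 0.41, or 1.33-fold higher. Mt2 was at 7.26 in the knockout-labelled pool and 6.81 in the wild-type pool, a difference of 0.45, or 1.36-fold higher. Neither reached 1.5-fold. The differences were 2.88 and 3.12 times the SD between probes, and 3.93% of genes past the filter differed as far or further than Mt1 and 2.85% as far or further than Mt2. They ranked 262 and 193 from the highest. Both were listed with these differences known, so nothing is read from these shares and ranks. The 2 genes are neighbours with related coding sequences, so probes of one may pick up RNA of the other, and their values are not independent.

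The 4 metallothionein genes follow each other on chromosome 8 in the order Mt4, Mt3, Mt2 and Mt1. Mt3, known from brain, was at 6.63 in the knockout-labelled and 6.59 in the wild-type pool, a difference of 0.04. Mt4, known from stratified epithelium, was below the filter at 5.43 in the knockout-labelled and 5.10 in the wild-type pool, a difference of 0.33. Nup93, the measured gene next to Mt1 on the other side, was at 0.27, and Bbs2, next to Mt4, at 0.09. The gene of the zinc sensor itself, Mtf1, was at 6.83 in the knockout-labelled and 6.78 in the wild-type pool, a difference of 0.04.

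**Figure D2:**
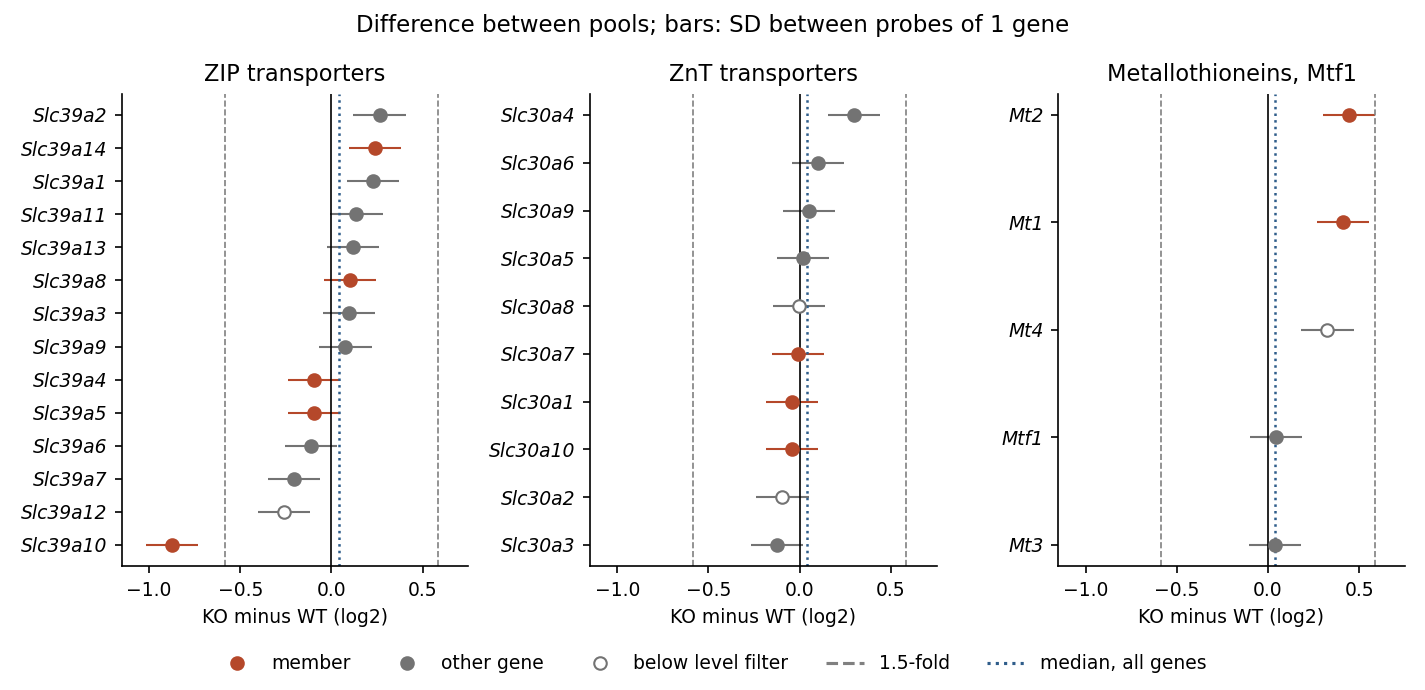
Knockout-labelled minus wild-type difference (horizontal axis, log2) of all measured ZIP genes, ZnT genes, and metallothioneins with Mtf1. Red points are the members, grey points other genes and open points genes below the level filter. Bars are the SD of 0.143 between probes of 1 gene, dashed lines mark 1.5-fold and the dotted line the median of all genes. Slc39a10 at -0.87 is the 1 gene past a dashed line.

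The bases before the starts of Mt1, Mt2 and Slc30a1 are shown because all 3 genes are known MTF1 targets but had unlike differences. They are from RefSeq on GRCm38.p6, plus strand, chr8:94178839-94179088 for Mt1, chr8:94172368-94172617 for Mt2 and chr1:191906531-191906780 for Slc30a1, with the metal response element core in capitals.
Mt1: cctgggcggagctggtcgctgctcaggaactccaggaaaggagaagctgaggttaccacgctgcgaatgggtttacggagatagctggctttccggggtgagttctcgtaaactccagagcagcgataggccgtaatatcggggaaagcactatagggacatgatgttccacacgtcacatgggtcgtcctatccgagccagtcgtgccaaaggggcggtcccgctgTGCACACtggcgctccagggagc
Mt2: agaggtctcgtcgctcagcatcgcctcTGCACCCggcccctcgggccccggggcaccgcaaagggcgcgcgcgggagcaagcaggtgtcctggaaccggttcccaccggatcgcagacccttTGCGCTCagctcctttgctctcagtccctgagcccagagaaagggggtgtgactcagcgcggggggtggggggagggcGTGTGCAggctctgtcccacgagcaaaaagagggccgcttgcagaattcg
Slc30a1: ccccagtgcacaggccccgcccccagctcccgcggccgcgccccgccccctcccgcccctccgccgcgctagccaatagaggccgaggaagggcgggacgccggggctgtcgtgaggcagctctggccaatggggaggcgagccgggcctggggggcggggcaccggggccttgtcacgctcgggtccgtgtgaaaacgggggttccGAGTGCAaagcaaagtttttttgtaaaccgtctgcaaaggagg

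Counting overlapping matches once, the Mt2 window held 4 cores, 3 of them in the printed bases, and 0.295% of all windows held at least 4. The Mt1 window held 3, with 1 in the printed bases from 23 to 17 before the start and the other 2 just after it. At least 3 cores were in 1.31% of all windows. The Slc30a1 window held 2, with 1 in the printed bases, and 6.14% of all windows held at least 2. Windows were listed for 8 of the 10 members, and 6 of those 8 held a core in at least 1 window. By window, 6 of 11 did, against 25.7% of all windows. The letters TATAAA were in none of the 11 windows of members. Positions are counted from the starts that RefSeq lists. For Mt1 and Mt2 these may lie upstream of the starts in common use, so the counts and positions hold for the listed windows only, and other starts were not searched.

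**Figure D3:**
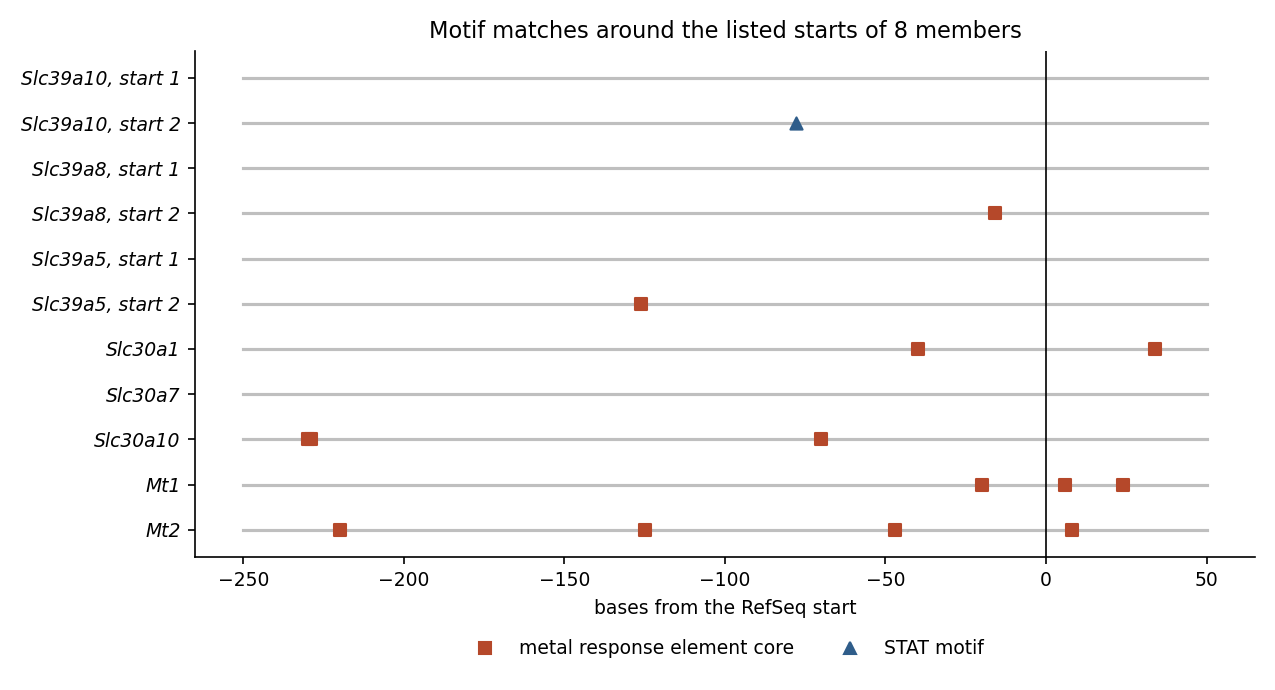
Matches of the metal response element core (squares) and the STAT motif (triangle) in the windows around the RefSeq starts of 8 members. The horizontal axis is the distance from the start in bases, and genes with 2 listed starts have 2 lines. Mt2 shows 4 cores and Mt1 shows 3, while both Slc39a10 lines show none.

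Genes of the glucocorticoid and interleukin-6 responses, which are known to induce metallothioneins, were set beside Mt1 and Mt2. All 9 glucocorticoid-response genes were above 0, as were 59.5% of all genes past the filter, with a median of 0.21. They ranged from 0.09 for the receptor gene Nr3c1 to 0.43 for the clock gene Per1. At least 1.5-fold higher were 0 of the 9, against 0.621% of all genes. Of 17 interleukin-6-response genes, 4 were at least 1.5-fold higher, namely Lcn2, Saa2, Saa1 and Orm2, against 0.621% of all genes, and 0 as much lower, against 0.335%. The median of the 17 was 0.08, against 0.04 for all genes, and 13 were above 0. The 4 below 0 were Socs3, a direct target of STAT3 signalling, at -0.15, the fibrinogen genes Fgg and Fgb at -0.06 and -0.03, and the iron hormone gene Hamp at -0.05. The part of either response in the values of Mt1, Mt2 and Slc39a14 was not tested.

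The rest of the ZIP family held 9 genes, with 8 past the filter. Of these, 0 were past 1.5-fold in either direction, against 0.335% lower and 0.621% higher over all genes. The median of the 8 was 0.11, with 6 above 0, against 59.5% of all genes. Slc39a2 was the highest at 0.26. Slc39a1, for a ZIP protein of the plasma membrane, was the 1 zinc transporter with 2 probes, which differed by 0.23 and 0.19. Slc39a7, which releases zinc from the endoplasmic reticulum, was the lowest at -0.21. Slc39a12 lay below the filter, at 4.15 in the knockout-labelled and 4.41 in the wild-type pool. Over all 13 ZIP genes past the filter the median was 0.10, and the lowest after Slc39a10 was Slc39a7.

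The rest of the ZnT family held 7 genes, with 5 past the filter. Here too 0 were past 1.5-fold, against 0.335% lower and 0.621% higher over all genes. The median of the 5 was 0.05. Slc30a4, known for loading zinc into vesicles of the mammary gland, was the highest at 0.30, with 6.73 in the knockout-labelled and 6.43 in the wild-type pool. Slc30a3, known for filling synaptic vesicles, was the lowest at -0.12. Slc30a2 and Slc30a8, known from secretory cells, lay below the filter at -0.09 and -0.0022.

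Enzymes that hold zinc and carriers of other metals were described beside the members. Of 19 zinc enzymes measured, 18 passed the filter, 0 reached 1.5-fold and 13 were above 0, against 59.5% of all genes, with a median of 0.12, against 0.04. Their range ran from -0.26 for the carbonic anhydrase gene Car2 to 0.22 for Car1. Of 13 copper, iron and manganese genes, 7 were above 0, against 59.5% of all genes, and the median was 0.02. In that list the transferrin receptor gene Tfrc, at -0.71, was the 1 past 1.5-fold. Of all genes past the filter, 0.335% were at least 1.5-fold lower and 0.621% at least 1.5-fold higher.

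**Figure D4:**
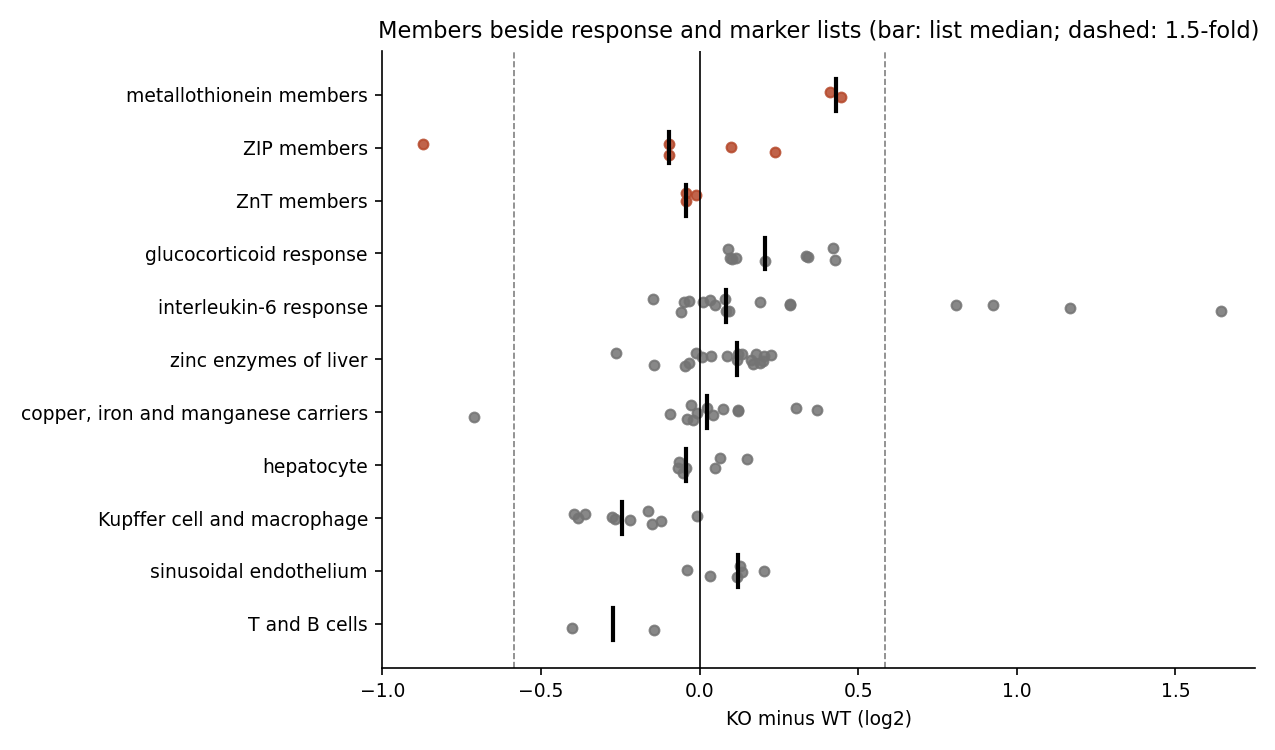
Knockout-labelled minus wild-type difference (horizontal axis, log2) of the members (red) and of genes past the level filter in response, enzyme, carrier and cell marker lists (grey), 1 point a gene. Vertical bars are list medians and dashed lines mark 1.5-fold. Mt1 and Mt2 are at 0.41 and 0.45, and the glucocorticoid-response genes run from 0.09 to 0.43 with a median of 0.21. Slc39a10 lies below every macrophage marker, but it was listed with its difference known, so nothing is read from its place.

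Across all genes past the filter 74 were at least 1.5-fold higher and 40 as much lower, or 90 and 30 after the common median shift. The differences of 74.8% of genes were within 0.2 of 0, as were those of 6 of the 10 members.

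**Figure D5:**
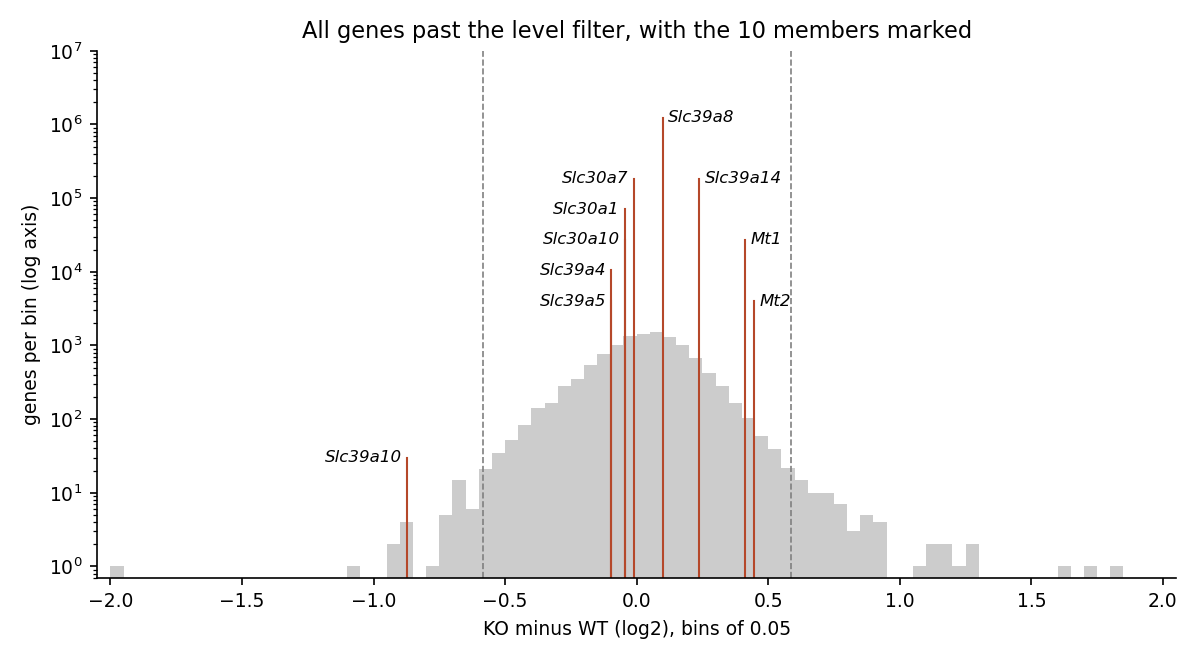
Number of genes (vertical log axis) by knockout-labelled minus wild-type difference (horizontal axis, log2, in bins of 0.05) for the 11924 genes past the level filter, with each member marked by a labelled red line whose height has no meaning. Dashed lines mark 1.5-fold. Slc39a10 lies in the sparse lower tail, Mt1 and Mt2 lie on the upper shoulder, and 6 members lie near the centre.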

How the data were processed

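Liver RNA of 2 pools was measured on 1 array each. The deposited table gives 1 log2 level per probe and array. Per the submitters' processing notes, Affymetrix Expression Console 1.0, RMA and Partek 6.4 were used, with no role or order named. The sources used here give neither genome build nor settings. RMA brings arrays to a common distribution and compresses differences of dim transcripts, and precision is limited by there being 2 arrays.

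Of 28853 probes, 21789 had 1 gene symbol in the platform annotation, 1621 several and 5443 none. For each gene the probe with 1 symbol and the highest mean level was used. Differences were taken with no further scaling, and with 1 array per group no test was made. Steps were tested on simulated data. Python 3.11.15, pandas 2.3.3 and statsmodels 0.14.6 were used. Promoter windows and gene order came from RefSeq tables of GRCm38.p6.

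The members, lists, thresholds and the rule for named genes were chosen with earlier results of these data known. The rule names the 10 members, Fhl2, the 3 genes nearest to the member with the largest difference, and, per list, genes past 1.5-fold and up to 4 others. Neighbours of Slc39a10 and of the Mt genes, and motifs, were looked up after the values were seen. The alternatives tried were the same median for both columns, subtraction of a lowess trend (span 0.3) of difference against level, the mean over a gene's probes, no level filter and a filter at the 60th percentile.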

Additional observations from a re-analysis of the deposited data

How the results depend on the processing

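The common median shift, lowess and the mean over probes moved the differences of the members by at most 0.0613, under the SD of 0.143 between probes. Of the 10 members 9 kept their sign, and Slc30a7 turned to 0.030 after the common median shift. Slc39a10 ran from -0.873 to -0.832, Mt1 from 0.350 to 0.452, Mt2 from 0.392 to 0.487 and Slc39a14 from 0.192 to 0.279. The members have 1 probe each, so the mean over probes cannot move them. With the filter raised to the 60th percentile, 6.69, Slc39a10 is left out and 0 members are at least 1.5-fold lower. The median of the members was -0.073 with the trend removed and 0.044 at the 60th percentile, and that of all ZnT genes turned from 0.0029 to -0.059 with the trend removed and to -0.0067 without the filter. Over all genes, 153 passed 1.5-fold upward and 133 downward without the filter, and 41 and 14 at the 60th percentile, against 74 and 40, since more or fewer genes are counted. No paired analysis was possible because each group holds 1 array. The dim level of Slc39a10 in the knockout-labelled pool limits the size of its fold.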
